A study of Mus musculus with 2 samples.

Results

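The genes described here build the protein import, quality control and shape of mitochondria, and they were followed in the mouse macrophage line RAW264.7, which serves as an osteoclast precursor. Members were all genes whose symbol in the array's platform annotation begins with *Timm* or *Tomm*, plus 20 named genes of outer membrane assembly, chaperones, proteases, prohibitins, fusion, fission and transport, which makes 46 genes. Of these, 42 had a probe set that names only that gene, out of 18193 genes with such a probe set on the whole array. Cells were transfected with *Flcn* targeted siRNA or with scramble siRNA, the medium was changed 24 hours later to MEM with 10% FCS, and RNA was taken after a further 48 hours. The labels name no RANKL for either condition. Each condition was 1 sample on 1 Affymetrix Mouse Genome 430 2.0 array, which leaves differences without a check by replicates and allows no p-value, and the small number of arrays bounds the precision. The methods name a single siRNA against *Flcn* and a single negative control, so the loss of *Flcn* cannot be told apart from other effects of these siRNAs, nor, in RNA of a whole culture, fewer expressing cells from less RNA per cell.

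Nearly all mitochondrial proteins are made in the cytosol as precursors. They pass the outer membrane through the TOM complex, whose receptors hand them to a channel, and are then sorted by the SAM machinery into the outer membrane, by small Tim chaperones across the intermembrane space, or by the TIM22 and TIM23 complexes into or across the inner membrane. In the matrix a motor built around the mitochondrial Hsp70 pulls the chain in, a processing peptidase removes its presequence, and chaperonins fold it. Proteases such as LONP1 and CLPXP remove damaged proteins, while mitofusins, OPA1 and DRP1 set the balance of fusion and fission, and the Miro GTPases tie mitochondria to microtubule motors.

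Values are linear signal intensities as deposited. The mean signal, trimmed by 2% of probe sets at either end, was 100.0 on both arrays, and the median was 13.6 with *Flcn* siRNA and 12.8 with scramble siRNA. Signals below their array's median were set to that median. The log2 ratio has *Flcn* siRNA on top and scramble siRNA below, and a gene is represented by its brightest probe set, judged by the geometric mean of both arrays. It counted as measured when that mean reached 13.2, which held for 10285 genes. *Flcn*, the siRNA target, had signals of 145 with *Flcn* siRNA and 209 with scramble siRNA at one probe set (log2 ratio -0.52) and of 206 and 241 at another (-0.22), and *Gpnmb*, a known target of Tfe3, had 2500 and 294. All 8 macrophage markers on the list were above the signal filter, with summed signals of 25687 with *Flcn* siRNA and 25888 with scramble siRNA. *Ptprc*, *Itgam*, *Csf1r* and *Adgre1* were lower with *Flcn* siRNA, *Ptprc* by the most (1789 and 2299), and *Cd68*, *Lyz2*, *Cd14* and *Tyrobp* were higher. The summed signals of 5 fibroblast markers, only 1 of them above the filter, were 25.8 and 45.3. The summed signals of 5 osteoclast markers, 3 of them above the filter, were 210.6 with *Flcn* siRNA and 139.5 with scramble siRNA, with 58.4 and 17.2 for *Ctsk*, the collagen-degrading protease cathepsin K, 115.6 and 90.8 for *Acp5*, which encodes TRAP, and 24.6 and 24.0 for *Ocstamp*. Of the neutrophil markers only *S100a8* passed the filter, with 27.5 and 11.3, and of the epithelial markers only *Epcam*, with 12.7 and 14.8. No T cell or B cell marker on the list passed it. The part of these shifts in the results on the import and upkeep genes was not tested.

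Most of the import and upkeep genes had a slightly higher signal on the *Flcn* siRNA array. Of 40 measured members, 31 lay above 0 in log2 ratio, which is 77.5%, against 51.7% of all measured genes. Their median log2 ratio was 0.14, or 1.10-fold, beside 0.013 over all measured genes. A gene was called by size alone, at 1.5-fold or more. *Rhot2* was the only member called higher and *Lonp1* the only member called lower, beside 5.85% of all measured genes called higher and 5.52% called lower. With 1 member in each direction, nothing is read from these shares, and where probe sets that may match several transcripts were left out, 3 of 35 members (8.57%) were called higher, beside 6.18% of all measured genes. A further 9 members (22.5%) were higher by 1.2-fold to 1.5-fold, beside 14.99% of all measured genes, and 1 member (2.5%), *Hspa9*, was lower by as much, beside 13.6%. This range was chosen with earlier results of these data known, so nothing is read from its shares. As the sole gauge of technical spread, not an error between replicates, the SD across the probe sets of a gene in log2 ratio had a median of 0.19 over 5034 genes and of 0.13 over the 26 members with several probe sets above the filter, and 22 of the 40 members had a log2 ratio smaller in size than 0.19. With division of each array by its own median, 57.5% of the members and 39.8% of all measured genes lay above 0, and the genes called higher made up 34.1% of all genes called in place of 51.5%.

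**Figure D1:**
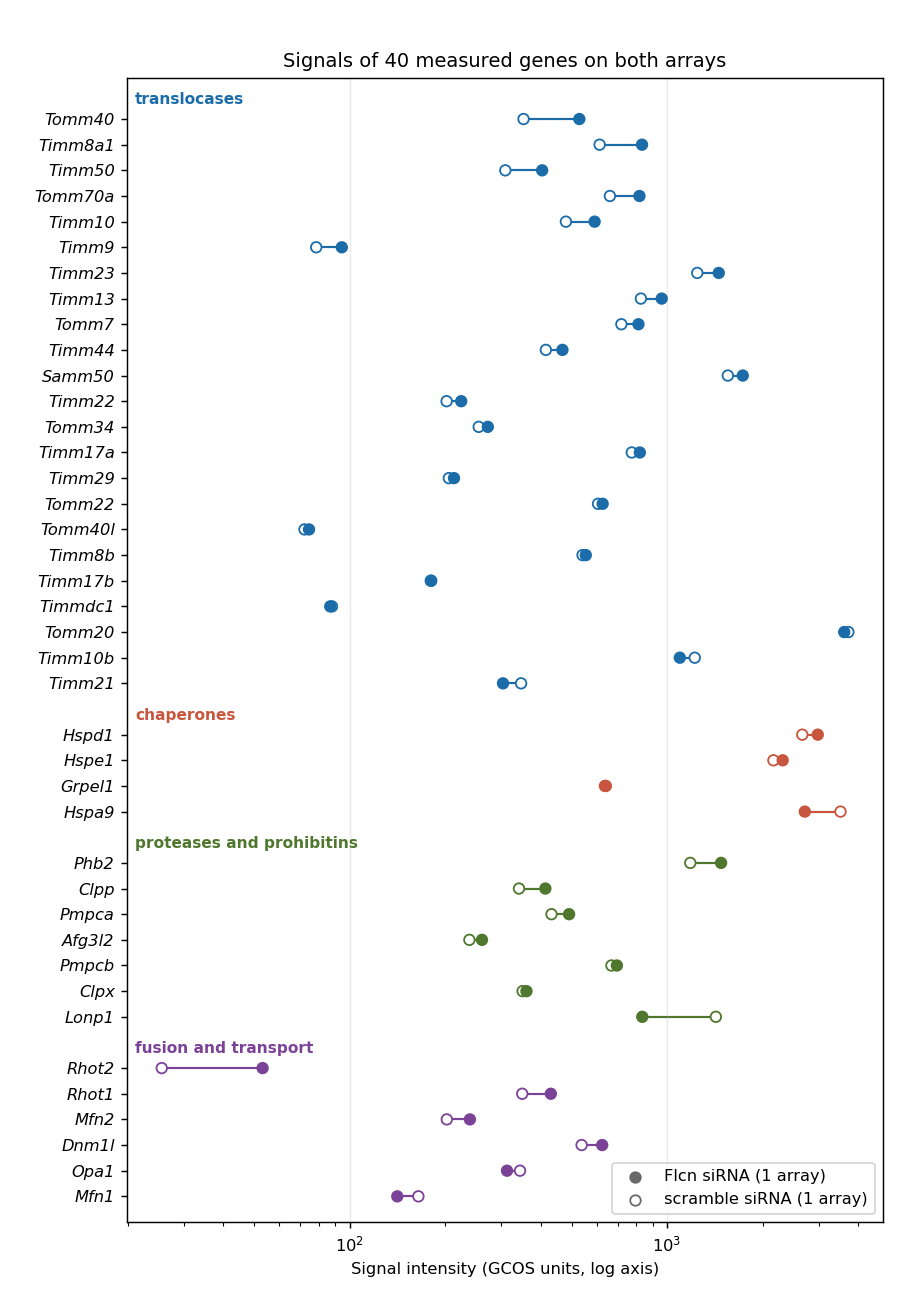
Signal intensity of each of the 40 measured genes on a log axis, with filled points for the *Flcn* siRNA array and open points for the scramble siRNA array, 1 array each, grouped by role and ordered by ratio. Most filled points lie a little to the right of the open ones, and the widest gaps are those of *Rhot2* (53.2 and 25.6) and *Lonp1* (835 and 1424).

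Of the 46 genes, 4 could not be read. *Dnajc19*, *Phb*, *Tomm5* and *Tomm6* are covered only by probe sets that the annotation also assigns to another gene, and no value is given to them by name. The signals of *Timm8a2* and *Tomm20l*, which encode relatives of TIMM8A and TOMM20, lay under the median of both arrays and did not pass the filter.

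Among translocases, 18 of 23 measured genes (78.3%) lay above 0 in log2 ratio, with a median of 0.15. Of all measured genes 51.7% lay above 0, and this share stands beside each such count below. None of the 23 reached 1.5-fold, beside 5.85% of all measured genes called higher and 5.52% called lower. Nothing is read from that count. The genes of the outer membrane channel and its receptors had unlike log2 ratios, and with 1 array per condition differences between them were not tested. *Tomm40*, which encodes the import channel, had a signal of 529 with *Flcn* siRNA and 353 with scramble siRNA, a log2 ratio of 0.58 that stops just short of 1.5-fold, and only 1 probe set. *Tomm70a*, the receptor for carrier precursors, had 818 and 660 at its brightest probe set (log2 ratio 0.31), and its 4 probe sets ranged from 0.0092 to 0.31. *Tomm20*, the receptor for presequences, had 3614 with *Flcn* siRNA and 3724 with scramble siRNA, and each of its 6 probe sets lay a little below 0, from -0.13 to -0.042. *Tomm22*, the central receptor, lay on both sides of 0 at its probe sets (-0.022 and 0.048), as did *Tomm40l*, a relative of the channel gene (-0.32 and 0.047). The channel gene thus had the highest log2 ratio of the translocases, while that of a main receptor gene was close to 0. The small subunit gene *Tomm7* (0.18) and *Tomm34*, a cytosolic co-chaperone (0.095), lay above 0, and so did *Samm50*, the core of the SAM machinery, with 1732 and 1554 at its brightest probe set (0.16) and 1023 and 746 at another (0.46).

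The small Tim proteins ferry hydrophobic precursors across the intermembrane space. *Timm8a1* had 834 with *Flcn* siRNA and 613 with scramble siRNA (log2 ratio 0.44) and 400 and 314 at its other probe set (0.35). *Timm10* had 591 and 480 (0.30), its partner *Timm9* had 94.5 and 78.5 (0.27, with 0.12 at its other probe set), and *Timm13*, the partner of TIMM8A, had 962 and 827 (0.22). *Timm8b*, a close relative of *Timm8a1*, had 555 and 542 (0.034). The exception below 0 was *Timm10b*, whose product sits at the TIM22 complex, with 1097 with *Flcn* siRNA and 1222 with scramble siRNA and log2 ratios from -0.20 to -0.037 at 3 probe sets. Of these 6 genes 5 lay above 0, with a median of 0.24. For the TIM22 complex, which inserts carriers, the channel gene *Timm22* had a log2 ratio of 0.15, with 0.60 at a dim second probe set, and *Timm29* one of 0.054, with 0.32 at its second probe set.

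In the TIM23 complex, which takes up presequence proteins, the differences were again uneven. *Timm50*, the receptor that faces the intermembrane space, had 404 with *Flcn* siRNA and 309 with scramble siRNA (log2 ratio 0.39). Its other probe set above the filter, a dim one with 43.8 and 17.4, gave 1.33, and its call turns to higher where that probe set is used or averaged in. *Timm23*, the channel, had 1455 and 1245 (0.22), and *Timm44*, which docks the motor, had 468 and 415 (0.17), with 0.079 and 0.82 at its other probe sets. The alternative partners of the channel, *Timm17a* (0.085) and *Timm17b* (-0.0048), were near 0. *Timm21*, which links TIM23 to the respiratory chain, had 304 with *Flcn* siRNA and 347 with scramble siRNA, the lowest log2 ratio of the translocases (-0.19). *Timmdc1* begins with the same letters but encodes a complex I assembly factor, and its log2 ratio was -0.018. The regions before the start of *Tomm40*, the translocase gene with the highest ratio, and of *Timm23*, the inner membrane channel gene, are given as the genome has them, from RefSeq with the build GRCm38.p6, 5′ to 3′ on the strand of the gene, and the capitals mark the core of the motif of GABPA, an ETS factor known for mitochondrial genes, read here on the other strand. The *Tomm40* stretch holds none of the motifs searched. It lies at chr7:19715430-19715679 and that of *Timm23* at chr14:32201892-32202141, both on the minus strand.
Tomm40: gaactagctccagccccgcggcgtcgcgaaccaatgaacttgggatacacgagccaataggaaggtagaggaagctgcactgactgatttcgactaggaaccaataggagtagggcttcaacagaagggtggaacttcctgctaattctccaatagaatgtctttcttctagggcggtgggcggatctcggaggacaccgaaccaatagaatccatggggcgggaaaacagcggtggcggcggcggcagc
Timm23: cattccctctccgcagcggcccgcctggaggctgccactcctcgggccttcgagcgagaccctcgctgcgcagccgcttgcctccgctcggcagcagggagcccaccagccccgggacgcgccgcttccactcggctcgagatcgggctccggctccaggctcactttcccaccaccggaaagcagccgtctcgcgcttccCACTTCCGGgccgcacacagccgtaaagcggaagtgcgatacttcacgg

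**Figure D2:**
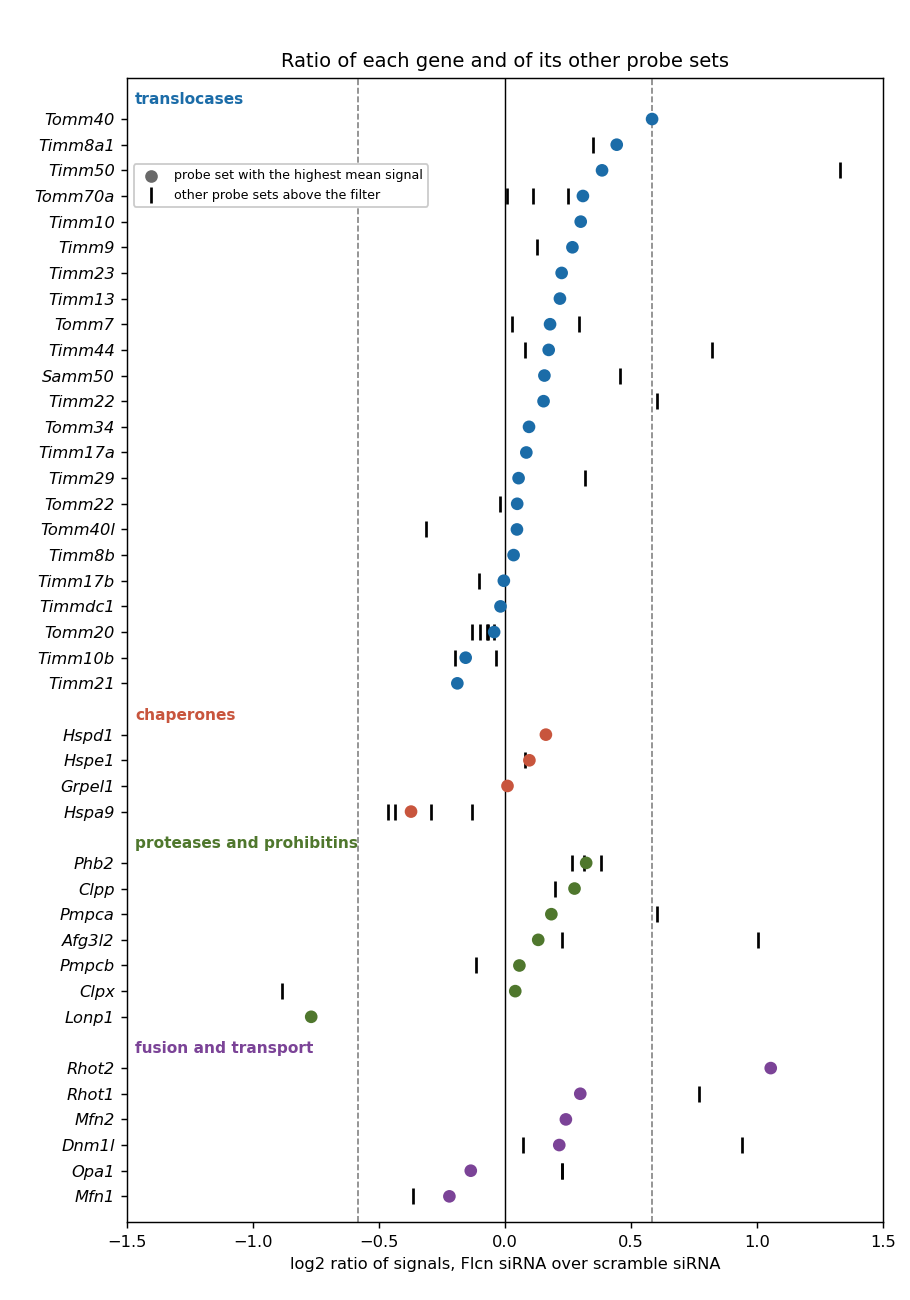
Log2 ratio, *Flcn* siRNA over scramble siRNA, of the signals of the 40 measured genes, where the large point is the probe set used and the ticks are the gene's other probe sets above the filter, from 1 array per condition. Dashed lines mark 1.5-fold in each direction, and *Rhot2* (1.06) and *Lonp1* (-0.77) are the large points beyond them.

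Of the 4 measured chaperone genes, 3 lay above 0, with a median of 0.053 on the log2 scale that turned to -0.034 with division of each array by its own median. *Hspa9*, which encodes the mitochondrial Hsp70 (mortalin) of the import motor, had a lower signal with *Flcn* siRNA at each of its 5 probe sets. Its brightest had 2716 with *Flcn* siRNA and 3518 with scramble siRNA (log2 ratio -0.37), the next had 1717 and 2368 (-0.46), and the others had 154 and 209, 147 and 180, and 17.7 and 19.4. It missed 1.5-fold at all of them. *Grpel1*, the nucleotide exchange factor of the same motor, had nearly the same signal on both arrays, 642 and 637. The chaperonin genes *Hspd1* (Hsp60) and *Hspe1* (Hsp10), whose products form a folding chamber, moved little and in the same direction, with 2983 and 2666 for *Hspd1* (0.16), and with 2313 and 2163 (0.097) and 1036 and 980 (0.081) at the probe sets of *Hspe1*. These last genes stand head to head, and the 215 bases between a start of *Hspd1* on the minus strand and the start of *Hspe1* on the plus strand, at chr1:55087933-55088147 (GRCm38.p6, RefSeq), are shown because both genes share them. The sequence reads 5′ to 3′ on the strand of *Hspe1*, and the capitals mark overlapping heat shock elements, the binding motif of the heat shock factor HSF1.
Hspd1 to Hspe1: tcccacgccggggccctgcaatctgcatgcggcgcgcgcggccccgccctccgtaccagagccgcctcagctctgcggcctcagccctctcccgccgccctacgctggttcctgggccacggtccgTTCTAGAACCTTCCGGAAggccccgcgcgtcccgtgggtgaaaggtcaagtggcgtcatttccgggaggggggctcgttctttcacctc

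Of 7 measured genes of proteases and prohibitins, 6 lay above 0 (median log2 ratio 0.13), and the exception was the only member called lower. *Lonp1*, the ATP-dependent protease of the matrix, had a signal of 835 with *Flcn* siRNA and 1424 with scramble siRNA, a log2 ratio of -0.77 or 1.71-fold lower, from a single probe set. Genes of the other matrix protease, CLPXP, had mixed values. *Clpp*, the peptidase, had 414 and 342 (0.28) and 334 and 292 (0.20) at its probe sets, and *Clpx*, its unfoldase, had 361 and 351 (0.041) at the brighter probe set but 29.9 with *Flcn* siRNA and 55.3 with scramble siRNA (-0.89) at a dim one. The subunit genes of the processing peptidase differed, with 491 and 432 (0.18) and 301 and 198 (0.60) for *Pmpca*, and with 695 and 668 (0.057) and 308 and 333 (-0.11) for *Pmpcb*. *Afg3l2*, a subunit of the m-AAA protease of the inner membrane, had 261 and 238 (0.13), with 0.23 and 1.01 at its other probe sets, the second of them a dim one whose scramble siRNA signal lay under the array median and was set to it. *Phb2*, a prohibitin of the scaffold that surrounds the m-AAA protease, had 1480 with *Flcn* siRNA and 1184 with scramble siRNA (0.32), and its 4 probe sets lay close together, from 0.27 to 0.38. The 250 bases before the start of *Lonp1*, at chr17:56626904-56627153 on the minus strand (GRCm38.p6, RefSeq), are given because no other member was called lower, and the capitals mark an E-box, the core that factors of the Tfe3 family and other helix-loop-helix factors bind, whose first base lies 36 bases before the start.
Lonp1: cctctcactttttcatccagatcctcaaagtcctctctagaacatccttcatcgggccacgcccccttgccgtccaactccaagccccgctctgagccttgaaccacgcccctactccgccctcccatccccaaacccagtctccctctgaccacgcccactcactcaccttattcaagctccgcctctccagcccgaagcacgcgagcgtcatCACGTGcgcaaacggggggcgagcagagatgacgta

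Of the 6 genes of fusion and transport, 4 lay above 0, and their median log2 ratio of 0.23 was the highest of the groups. The 14 measured genes of a list of other dynamics genes, given below, had a median of -0.19, with 5 above 0. *Rhot2*, which encodes the GTPase Miro2, had a signal of 53.2 with *Flcn* siRNA and 25.6 with scramble siRNA, a log2 ratio of 1.06 or 2.08-fold higher. This rests on 1 dim probe set, which a filter at the 75th percentile of signals removes. Its relative *Rhot1* (Miro1) had 430 and 350 (0.30), and 24.2 and 14.2 at a dim probe set (0.77), which would be called higher if used alone. The mitofusins lay on opposite sides of 0, with 239 with *Flcn* siRNA and 202 with scramble siRNA for *Mfn2* (0.24), and with 141 and 165 (-0.22) and 91.1 and 118 (-0.37) at the probe sets of *Mfn1*. *Dnm1l*, which encodes the fission GTPase DRP1, had 625 and 538 (0.22), with 0.073 and 0.94 at its other probe sets, the second of them dim. *Opa1*, which fuses the inner membrane, disagreed with itself, with 313 and 344 (-0.14) at its brightest probe set and 0.23 at both others. The genes of fusion thus held values on both sides of 0. The region before the start of *Rhot2*, at chr17:25844526-25844775 on the minus strand (GRCm38.p6, RefSeq), is the counterpart of that of *Lonp1* for the only member called higher, and it has no capitals because none of the motifs searched was found in it.
Rhot2: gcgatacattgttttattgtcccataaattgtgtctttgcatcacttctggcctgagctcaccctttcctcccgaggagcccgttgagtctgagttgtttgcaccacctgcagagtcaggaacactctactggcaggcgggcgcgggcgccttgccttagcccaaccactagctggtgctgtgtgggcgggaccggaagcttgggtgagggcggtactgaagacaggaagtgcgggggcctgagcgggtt

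The motifs were looked for on both strands, as exact letters, in windows from 250 bases before to 50 bases after each RefSeq start. Of the 40 measured members 35 had a window, and *Afg3l2*, *Hspa9*, *Timm21*, *Tomm40l* and *Tomm7* had none in the table. The GABPA core CCGGAAGTG was found in 6 of 35 members (17.1%), namely *Phb2*, *Timm10*, *Timm23*, *Timm29*, *Timmdc1* and *Tomm70a*, and in 2.25% of all 27025 genes. An E-box, CACGTG, which reads the same on both strands, was found in 6 members (17.1%), namely *Hspd1*, *Lonp1*, *Timm10*, *Timm8a1*, *Timm9* and *Tomm20*, and in 8.09% of all genes. The longer core TCACGTGA, which holds an E-box and is the heart of the M-box and of the CLEAR element of the Tfe3 family, was in no member and in 1.12% of all genes. The core of NRF1, a known regulator of mitochondrial genes, which is GCGC and TGCGC parted by an A, was found in *Opa1* and in 1.07% of all genes, and the same letters parted by any base in *Hspd1*, *Opa1*, *Timm8b* and *Tomm20* and in 5.19% of all genes. The core of the estrogen-related receptors, TCAAGGTCA, was in *Timm8b* and in 0.466% of all genes, and the heat shock element, the units TTC, GAA and TTC each parted by any pair of bases, in *Hspd1*, *Hspe1* and *Timm9* and in 0.662% of all genes. The matches of *Hspd1* and *Hspe1* are the same bases, which lie between both genes. This motif and the NRF1 letters parted by any base were chosen after the sequences were seen, so nothing is read from their shares. Members with an E-box ranged in log2 ratio from -0.77 for *Lonp1* to 0.44 for *Timm8a1*, and those with the GABPA core from -0.018 for *Timmdc1* to 0.32 for *Phb2*. A match describes the letters only, and binding was not measured. All members searched were measured genes, while the 27025 genes include many that were not, so these shares come from unlike sets. The printed regions held 55.2% to 70.2% G or C, beside a median of 52.4% in the 250 bases before all starts.

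Set beside each other, the medians of the groups ran from 0.053 for chaperones over 0.13 for proteases and prohibitins and 0.15 for translocases to 0.23 for fusion and transport, and the values of single genes in each group overlapped those of the others. With 1 array per condition these differences between groups were not tested. The other dynamics genes described below had a median of -0.19, unlike the fusion and transport group. Genes of mitochondrial ribosomal proteins (*Mrpl* and *Mrps*) had a median of 0.13, with 54 of 76 above 0, and carriers of the *Slc25* family one of 0.025, with 20 of 36 above 0.

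**Figure D3:**
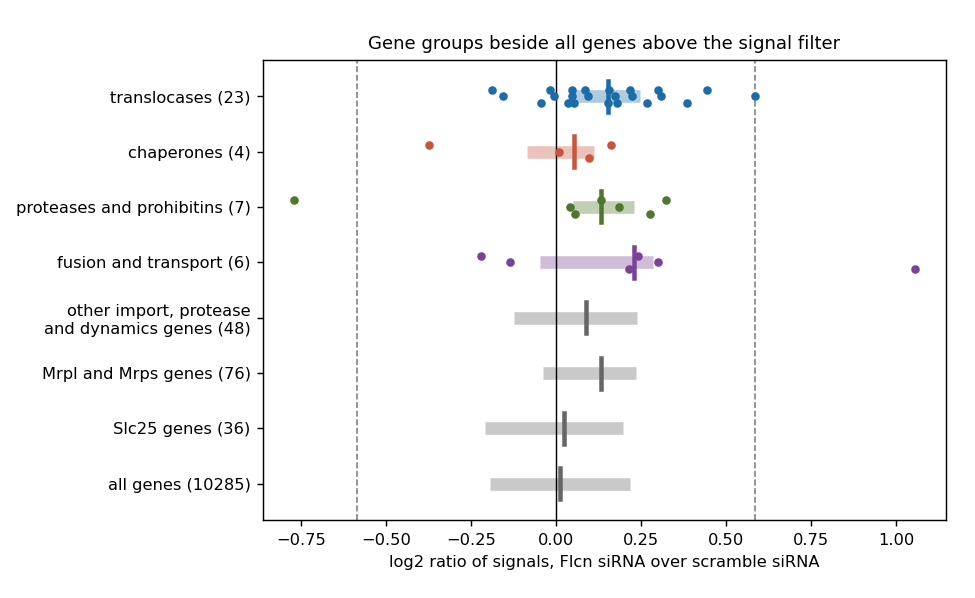
Log2 ratio of signals, *Flcn* siRNA over scramble siRNA, by gene group, with the number of measured genes in parentheses. Points are single genes of the 4 groups, vertical bars medians, pale bars the range between the quartiles and dashed lines 1.5-fold; the medians of the 4 groups lie between 0.053 and 0.23, right of the median of all genes at 0.013, while the points of each group spread around it.

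A list of 51 other genes of the same processes held 48 measured genes, of which 32 lay above 0 (median log2 ratio 0.089). Of 19 other import genes 17 lay above 0, with a median of 0.12, the highest being *Mtx3*, a relative of the metaxins of the outer membrane (0.39, with -0.42 at its lowest probe set). Among 11 other proteases 8 lay above 0, led by *Htra2*, a serine protease of the intermembrane space, with 491 with *Flcn* siRNA and 369 with scramble siRNA (0.41). Of 4 other chaperones 2 lay above 0, at a median of 0.024. Of 14 other dynamics genes 5 lay above 0, at a median of -0.19, and no difference between the subgroups was tested. Of the 9 dynamics genes below 0, 5 had another probe set above 0, up to 0.96 for *Mtfr1l*, a relative of the fission regulator MTFR1. Of the 48 measured genes of the list, 2 were called higher, both of them dynamics genes, and none lower. Of all measured genes 5.85% were called higher and 5.52% lower, and nothing is read from these counts. *Miga2*, a mitoguardin that promotes fusion, had 77.2 with *Flcn* siRNA and 42.0 with scramble siRNA, 1.84-fold, and its 3 probe sets lay between 0.29 and 0.88. *Mtfp1*, which promotes fission, had 78.3 and 42.8 at its only probe set, 1.83-fold. At the low end stood *Mief2*, a receptor for DRP1, with 79.9 with *Flcn* siRNA and 114.6 with scramble siRNA (-0.52), *Pink1*, the kinase that marks damaged mitochondria, with 64.1 and 89.6 (-0.48, and -0.42 at its other probe set), and *Usp30*, a deubiquitinase that opposes their removal, with 53.3 and 71.8 (-0.43, and -0.020 at its other probe set). None of these 3 reached 1.5-fold.

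**Figure D4:**
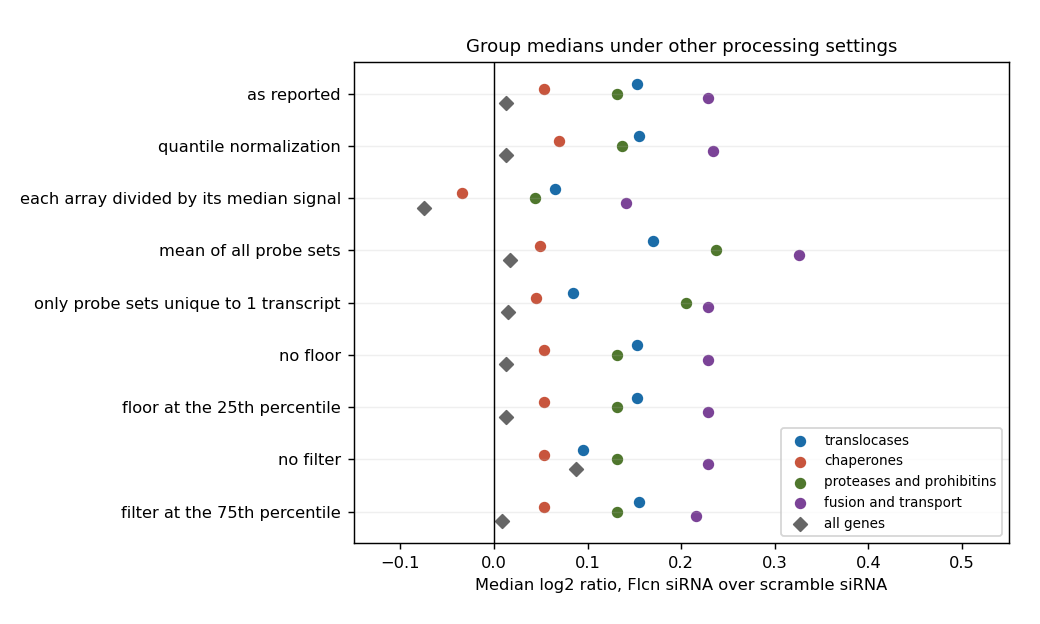
Median log2 ratio, *Flcn* siRNA over scramble siRNA, of the 4 gene groups and of all measured genes as reported and under 8 other settings. Dividing each array by its median signal moves all points to the left, with chaperones at -0.034 and all genes at -0.075. Without a signal filter the median of all genes is 0.087, the log2 ratio of the floors that genes under both array medians receive. *Timm8a2* and *Tomm20l* then join the translocases (median 0.095) at that same value.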

How the data were processed

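RNA of RAW264.7 cells was measured on 2 Affymetrix Mouse Genome 430 2.0 arrays, 1 per condition. The deposited values are linear signal intensities, which the authors obtained with GCOS 1.0; its scaling target is not given in the sources used here, and detection calls were not used here. Of 45101 probe sets, 64 controls, 9211 without a listed gene and 932 naming several genes were left out, and these groups overlap in part. Of the remaining 34945 probe sets, 34741 matched RefSeq (GRCm38.p6) by Entrez ID, which gave their symbols. Floor, filter, probe set choice and the 1.5-fold rule are as given with the results. No test fits 1 array per condition. The members, gene lists, motifs and 1.2-fold range were chosen with earlier results of these data known, and the heat shock and relaxed NRF1 motifs after the promoter sequences were seen. All members could be named. Of the other list, genes past 1.5-fold and the 3 highest and 3 lowest were named, besides examples of its groups. The scripts were tested on simulated data. The settings varied were the scaling (by median or quantiles), the probe sets (their mean, or those unique to 1 transcript), the floor (none, or the 25th percentile) and the filter (none, or the 75th percentile). A shift in a group median counted once it exceeded the typical SD across probe sets over the square root of the number of genes, and a count had to change more than 1.5 times. Python 3.11.15, numpy 2.4.6, pandas 2.3.3 and matplotlib 3.10.9 were used.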

Additional observations from a re-analysis of the deposited data

Results flagged for a closer look

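Outside the named genes, 8 probe sets list a member of the import and upkeep genes together with another gene, so that their signal cannot be given to either. Of these, 2 were higher by 1.5-fold or more with *Flcn* siRNA and 1 was lower, beside 5.85% and 5.52% of all measured genes. With so few probe sets nothing is read from these counts. One of the higher ones had a signal of 754 with *Flcn* siRNA and 444 with scramble siRNA, 1.70-fold, and the other had 257 and 152, 1.69-fold. Both carry the same pair of genes in the annotation. The lower one, which lists another pair, had 34.5 with *Flcn* siRNA and 70.1 with scramble siRNA, 2.03-fold lower, the widest difference of the 8. The brightest probe set of that pair went the other way, with 462 with *Flcn* siRNA and 405 with scramble siRNA. Its dimmest had 12.3 and 17.2. These values stand out because they come from probe sets that no comparison used.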

How the results depend on the processing

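When arrays were scaled to equal medians, the median log2 ratio was 0.055 for all members, 0.065 for translocases, 0.044 for proteases and prohibitins, 0.14 for fusion and transport, 0.0017 for the other import, protease and dynamics genes and -0.075 for all measured genes, a shift that this scaling gives to every gene. With only probe sets unique to 1 transcript the medians were 0.095 for all members, 0.085 for translocases and 0.21 for proteases and prohibitins, 3 members (*Rhot2*, *Timm50* and *Rhot1*) were called higher (8.57% of 35, beside 6.18% of all genes) and 0 lower (beside 5.63%), since *Lonp1* has no such probe set. With the mean of all probe sets the medians were 0.24 for proteases and prohibitins, 0.33 for fusion and transport and 0.017 for all genes, and 2 members, *Rhot2* and *Timm50*, were called higher (5.0%, beside 5.54%). Quantile normalization also gave 2 (beside 5.38%), as *Tomm40* then passed 1.5-fold. A filter at the 75th percentile left 0 called higher (beside 3.13%), *Rhot2* being removed, and a median of 0.0086 for all genes. With no filter the medians were 0.095 for translocases and 0.087 for all genes. The latter is the value that the floors give to any gene under both array medians, *Timm8a2* and *Tomm20l* among them. Over the 8 settings, 23 members stayed above 0, 8 stayed below 0 and 9 changed side, and neither *Lonp1* nor *Rhot2* did where measured. No paired analysis was possible because each condition has 1 array and no result comes from a test. For the same reason no array could be left out.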
